A study of Mus musculus with 8 samples.

Results

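Myelin genes were followed inside and outside oligodendrocytes in single-nucleus RNA sequencing (sn-RNAseq) of mouse hippocampus. The genes are Mbp, Mog, Mag, Mobp, Cnp, Mal, Cldn11, Opalin and Ermn, 9 of 30211 genes counted, and they were chosen by name. Oligodendrocyte nuclei were those in which St18 and Prr5l, neither of them among the 9, together held at least 0.15% of the unique molecular identifiers (UMIs, counted RNA molecules) of the nucleus and no other type's gate was passed. This gate held 6829 of 32041 nuclei, between 501 and 1293 per library.

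The study asked what loss of Gsap, the gene of a γ-secretase activating protein, changes in the hippocampus with and without a transgenic amyloid model. There were 3 WT libraries and 3 labelled GKO (Gsap -/-) from mice at 7 mo, and 1 J20;WT and 1 J20;GKO library from mice at 6 mo, each from 1 mouse labelled C57BL/6, on a C57BL/6N background by the methods of the study. GKO mice carry a constitutive deletion of internal Gsap exons made by a cross to CMV-Cre mice, and J20 mice carry human APP, mutated as in the Swedish and Indiana families, driven by the human PDGFB promoter. The deposited data carry a date, of which it is not stated what it marks: WT 1 and GKO 1 share the first, J20;WT has one of its own, and the other 5 libraries share the second. Mice of both sexes were used, and the nuclei were cleaned on a density step from which floating myelin was removed.

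Oligodendrocytes wrap axons in myelin, a stack of their own membrane pressed together by basic and membrane-spanning proteins and sealed by tight junctions. Oligodendrocyte precursor cells (OPCs) make little of this set and switch it on, with Sox10 and Myrf, as they mature. Myelin transcripts are abundant and are partly carried out into the myelin processes, so that they are often met as free RNA in preparations of nuclei.

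The 8 libraries held 2731 to 5252 nuclei and 21020159 to 43310978 UMIs after filtering, with a median of 4579 to 6438.5 UMIs per nucleus. No pair of libraries was identical, and pairs shared 2 to 21 cell barcodes. Of the genes kept out of the gate to check its label, Aspa, the enzyme that frees acetate from N-acetylaspartate, stood at 859 CPM (UMIs of a gene per 1e+06 UMIs) in the gated nuclei and at most at 147 CPM elsewhere, Myrf at 229 CPM against 15.6 CPM in OPCs, and Ugt8a, of galactolipid synthesis, at 671 against 124 CPM in OPCs. Sox10, a factor of the whole lineage, was higher in OPCs (513 CPM) than in the gated nuclei (425 CPM). Gsap stood at 22.3 to 23.0 CPM in WT and 19.8 to 22.0 CPM in GKO over all nuclei, ranges that do not overlap but lie close, with a log2 difference of -0.07 ± 0.09 that was not called (adjusted p = 0.9999 in edgeR's quasi-likelihood test). Counts are per gene and the deletion is of some exons, so this level does not check the label.

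The 8 members outside the Mbp locus lie at these places on GRCm38. Mog is at chr17:37010743-37023398, Mag at chr7:30899176-30914873, Mal at chr2:127633226-127656695, Opalin at chr19:41061710-41077113 and Ermn at chr2:58045113-58052864, all on the minus strand. Mobp is at chr9:120149707-120181484, Cnp at chr11:100574904-100591729 and Cldn11 at chr3:31149920-31164324, on the plus strand. Exons made up between 7.66% of the gene (Mbp) and 46.9% (Ermn). Cnp shares 8912 bases with Dnajc7 and Ermn shares 748 bases with Galnt5, both on the opposite strand, and whether counting used strand is not given in the sources used here.

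The letters before the start sites of 4 members are shown because the results below turn on these genes: Cnp is the member most seen outside oligodendrocytes, Opalin and Mal are those that differ with Enpp6, and Mobp is the one that differs between dates in the other direction. They are upstream bases of the RefSeq promoter table (GRCm38.p6), cut at the first annotated exon, with capitals for letters that match ACAANG (a Sox core), CTGGNAC (the Myrf core) or CAGCTG (an E-box) on either strand. The windows are chr11:100574689-100574903 on the plus strand for Cnp, chr9:120149492-120149706 on the plus strand for Mobp, chr19:41077114-41077363 on the minus strand for Opalin and chr2:127656696-127656945 on the minus strand for Mal.
Cnp: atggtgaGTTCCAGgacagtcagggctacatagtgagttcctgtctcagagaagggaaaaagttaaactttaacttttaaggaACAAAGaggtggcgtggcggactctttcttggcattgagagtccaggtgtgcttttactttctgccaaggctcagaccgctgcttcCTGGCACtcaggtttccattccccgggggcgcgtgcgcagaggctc
Mobp: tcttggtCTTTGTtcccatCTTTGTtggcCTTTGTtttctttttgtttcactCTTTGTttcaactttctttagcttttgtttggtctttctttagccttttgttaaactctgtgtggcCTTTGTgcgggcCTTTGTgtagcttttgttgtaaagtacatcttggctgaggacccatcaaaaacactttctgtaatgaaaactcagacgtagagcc
Opalin: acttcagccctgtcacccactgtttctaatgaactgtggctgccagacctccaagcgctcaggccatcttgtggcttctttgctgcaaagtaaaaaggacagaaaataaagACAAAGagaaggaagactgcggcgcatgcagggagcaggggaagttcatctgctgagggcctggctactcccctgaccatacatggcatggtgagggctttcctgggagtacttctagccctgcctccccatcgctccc
Mal: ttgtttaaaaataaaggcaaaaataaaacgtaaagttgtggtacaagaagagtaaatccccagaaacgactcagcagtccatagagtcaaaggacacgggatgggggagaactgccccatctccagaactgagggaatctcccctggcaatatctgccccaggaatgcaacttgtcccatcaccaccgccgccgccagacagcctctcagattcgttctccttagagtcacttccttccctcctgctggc

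The table held 8 of the 9 members. Searched over the full 250 bases before the start, also where fewer are printed, the Sox core was found in 6 of these 8, against 36.6% of 27025 promoters searched over the same 250 bases, the Myrf core in 3 of 8 against 16.0%, and the E-box in 0 of 8 against 12.8%. The Mobp window held 6 matches of the Sox core, as did or exceeded 5 of all promoters (0.0185%). The Cnp window held 1 match of the Sox core and 2 of the Myrf core. The Mal window held none of the 3. These are matches of letters and show no binding.

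In the gated oligodendrocytes all 9 members were found in each library. Mbp, the basic protein that compacts the inner faces of the membrane, varied least with Ermn, while Mal, a raft proteolipid of compact myelin, and Cldn11, the claudin of myelin tight junctions, varied most. Mbp stood at 3236, 3708 and 3569 CPM in WT 1 to 3, at 3373, 3753 and 3803 CPM in GKO 1 to 3, at 2782 CPM in J20;WT and at 3699 CPM in J20;GKO. The highest Mbp level was 1.37 times the lowest, and a median of 99.4% of the gated nuclei held at least 1 Mbp UMI.

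Mal stood at 1387, 3258 and 3244 CPM in WT, at 1530, 2137 and 2702 CPM in GKO, at 3483 CPM in J20;WT and at 3752 CPM in J20;GKO, a span of 2.70 times. Cldn11 ran from 808 CPM in WT 1 to 2239 CPM in J20;WT, a span of 2.77 times. For both genes WT 1 and GKO 1 were the lowest of the 8 libraries, and both J20 libraries were above all 6 others.

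Mobp, another small basic protein of compact myelin, was ordered the other way. It stood at 2051, 1353 and 1047 CPM in WT, at 2110, 1853 and 1463 CPM in GKO, at 850 CPM in J20;WT and at 1780 CPM in J20;GKO. The libraries with the highest Mobp levels were thus the pair with the lowest Mal levels.

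The other 5 members had their lowest level in WT 1 or GKO 1, as Mal did. Mag, the sialic-acid-binding adhesion protein that faces the axon, ran from 1174 CPM in WT 1 to 2232 CPM in WT 3, and Mog, the glycoprotein of the outermost lamella, from 1227 CPM in WT 1 to 2347 CPM in J20;WT. Opalin, a sialylated membrane protein of mature oligodendrocytes, ran from 239 CPM in GKO 1 to 637 CPM in J20;WT. Cnp, the phosphodiesterase of the cytoplasm-filled channels, ran from 228 CPM in WT 1 to 399 CPM in WT 2, and Ermn, an actin-linked cytoskeletal protein, from 219 to 295 CPM.

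**Figure D1:**
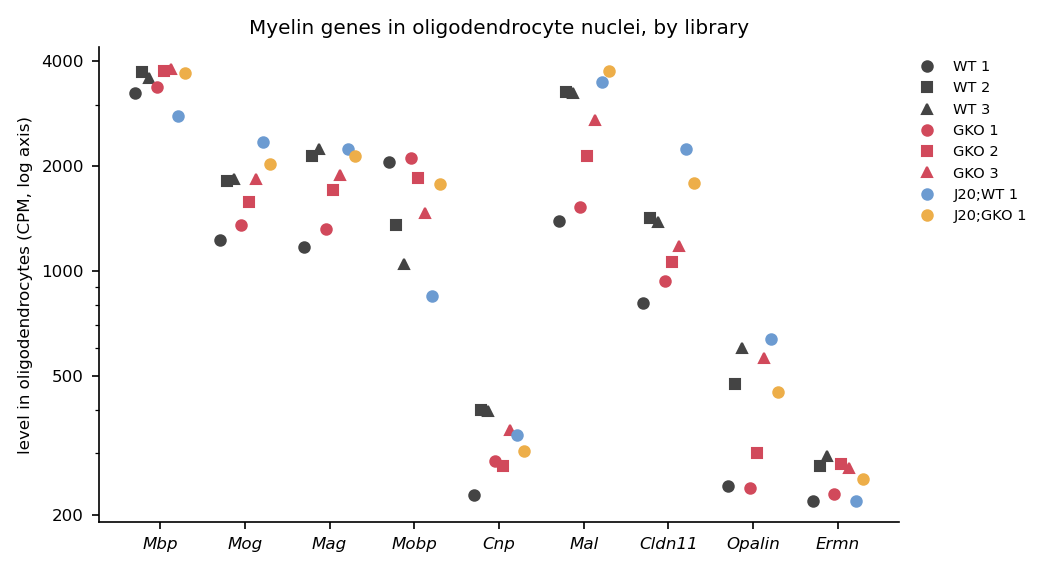
Level of each myelin gene (CPM, log axis) in oligodendrocyte-gated nuclei, 1 point per library. WT 1 and GKO 1 (dark and red circles) lie low for Mal, Mag and Cldn11 and high for Mobp, while Mbp stays between 2782 and 3803 CPM.

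WT 1 and GKO 1, the libraries of the first date, were compared with WT 2, WT 3, GKO 2 and GKO 3 of the second, with genotype as a term, in a comparison added after the data were seen. Of the 9 members 5 were lower in the first date, beside 6.75% of the 11997 genes tested, and 1 was higher, beside 6.47%, in edgeR's quasi-likelihood test where a call needs an adjusted p below 0.05 together with a log2 difference above 0.3. Mal fell by 0.92 ± 0.14 (SE) on the log2 scale, Mag by 0.65 ± 0.10, Cldn11 by 0.51 ± 0.11, Mog by 0.44 ± 0.09 and Ermn by 0.31 ± 0.10 (adjusted p = 0.000926, 0.000111, 0.00348, 0.00246 and 0.0413). Mobp was higher by 0.58 ± 0.14 (adjusted p = 0.0262).

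The other 3 members were not called. Opalin differed by -0.99 ± 0.31 (adjusted p = 0.138), Cnp by -0.45 ± 0.14 (adjusted p = 0.057) and Mbp by -0.15 ± 0.08 (adjusted p = 0.219). Without WT 1, only Mal was called lower (-0.64, adjusted p = 0.00395) and 0 members were higher, in a fit where the first date is GKO 1 alone and is assumed to vary like the other libraries. Without GKO 3, Mobp (adjusted p = 0.0532) and Ermn (adjusted p = 0.0567) were not called, while Opalin was lower (adjusted p = 0.0255).

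Among 42 other genes of myelin and the oligodendrocyte lineage 41 were tested. Of these 26 were lower in the first date, beside 6.75% of all genes, and 1 was higher, beside 6.47%. The median difference of the 41 was -0.51 against 0.00 over all genes. Gpr17, a receptor of newly formed oligodendrocytes, fell by 2.46 (adjusted p = 0.0404), and Bmp4, a secreted factor known from newly formed oligodendrocytes, fell by 1.69 (adjusted p = 0.0141). The share of Enpp6-positive nuclei in the gate was 5.18% in WT 1 and 6.52% in GKO 1, against 10.9% to 20.0% in the other 4 libraries of this comparison. Gated nuclei held a median of 2361 and 2521 UMIs in WT 1 and GKO 1, against 1889 to 2314 in the other 4. The part of this depth in the Enpp6 share was not tested. Mitochondrial UMIs made up 0.641% and 0.636% of the gated nuclei's UMIs in WT 1 and GKO 1, and 0.675% to 1.6% in the other 4. The part of these shares in the differences was not tested, and a date and the mice of that date cannot be told apart.

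No member was called between GKO and WT. In oligodendrocytes 0 of the 9 members were called, beside 0% of 11563 genes in edgeR's quasi-likelihood test, which found 172 genes and 0 members at an unadjusted p under 0.05. DESeq2's Wald test called 0 genes as well. The largest differences were Mobp at 0.30 ± 0.26 (SE), from 1484 ± 515 (SD, n = 3) CPM in WT to 1809 ± 326 CPM in GKO, and Mal at -0.29 ± 0.33, from 2630 ± 1076 to 2123 ± 586 CPM (adjusted p = 0.9996 for both). For both genes the groups overlapped. In each same-numbered pair Mobp was higher in GKO, and with the replicate number as a block its difference was 0.34 (adjusted p = 0.432). Mbp too was higher in GKO in each pair, with 0.07 under the block (adjusted p = 0.982). The remaining 7 lay between -0.24 and 0.07.

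Within the second date Mal stood at 3258 and 3244 CPM in WT and 2137 and 2702 CPM in GKO. There the groups did not overlap for Mal, Mag, Cnp and Cldn11, each lower in both GKO libraries. Nor did they overlap for Mbp and Mobp, each higher in both. The share of all genes without overlap was not counted, so this is no result about the members as a set. The fit of these 4 libraries gave -0.41 ± 0.12 for Mal (adjusted p = 0.325) and 0.47 ± 0.14 for Mobp (adjusted p = 0.458), and called 0% of 10921 genes, with 709 genes and 5 members at an unadjusted p under 0.05. In the first date the ratio of GKO 1 to WT 1 was 0.14 for Mal, 0.16 for Mag, 0.32 for Cnp and 0.21 for Cldn11 on the log2 scale, the opposite sign for all 4, and 0.06 for Mbp and 0.04 for Mobp, the same sign. The first date has 1 library of each genotype, so its spread is taken from the second, and these 4 members were picked for their opposite signs. The test of the difference between dates gave an adjusted p of 0.716 for Cnp, 0.809 for Mal, 0.868 for Cldn11 and 0.944 for Mag, beside 0.0158% of 12656 genes called. All 4, and 642 genes in all, had an unadjusted p under 0.05.

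Outside oligodendrocytes no member was called between GKO and WT either, in OPCs, excitatory neurons, inhibitory neurons, astrocytes, microglia or all nuclei together (0% of 8082 to 19193 genes called in each). Low counts left 5 members to test in OPCs, 8 in inhibitory neurons, 8 in astrocytes and 6 in microglia. In excitatory neurons 8 of 9 members had a lower estimate in GKO, with a median of -0.37 against 0.00 over all genes, and 3 of them (Mal, Opalin and Ermn) had an unadjusted p under 0.05 beside 226 of 17528 genes. Oligodendrocyte-gated nuclei held 4.25% to 8.90% of UMIs in the GKO libraries and 6.81% to 8.98% in WT, whose part in these estimates was not tested. With the replicate number as a block 0 members and 1 gene each in OPCs, inhibitory neurons, astrocytes and all nuclei were called, and 0 genes in the other 3 comparisons.

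The J20 pair has 1 library per group and different dates, so genotype and date cannot be told apart and no test was made. Mobp was at 850 CPM in J20;WT, with exact 95% Poisson bounds of 795 and 907, and at 1780 CPM (1719 to 1843) in J20;GKO, and Mbp at 2782 (2682 to 2884) and 3699 CPM (3611 to 3789). Opalin went the other way, with 637 (590 to 687) and 449 CPM (419 to 481). These intervals cover counting error only. J20;WT was above the range of the 6 WT and GKO libraries for 4 members and below it for 2, and J20;GKO above it for 3. The share of all genes outside that range was not counted, so these counts are no result about the members. The J20 libraries also differ from the 6 in age and transgene, and J20;WT has a date of its own.

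All 9 members were higher in oligodendrocytes than in OPCs of the same library, beside 10.7% of 11563 genes, at a log2 difference over 1 with the library as a block, and 0 were lower, beside 22.2%. Of these, 5 had counts enough for a test in OPCs alone. Mag, Cldn11, Opalin and Ermn did not, entered the comparison through oligodendrocytes and so had to be higher, and the count of 9 is not support. Among the 5, Mbp was higher by 5.53 ± 0.12 (SE) on the log2 scale, and Cnp was closest, with 2.95 ± 0.11, which is 7.75-fold (adjusted p = 2.87e-21). Cnp stood at 29.7 to 63.1 CPM in OPCs. Opalin rested on 13 UMIs in 901 OPC nuclei, with 1 library at 0.

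Of the 42 other myelin and lineage genes 41 were tested between these types. In oligodendrocytes 27 were higher, beside 10.7% of all genes, and 3 lower, beside 22.2%. Only 25 of the 42 had counts enough for a test in OPCs alone. The rest of those tested entered through oligodendrocytes, so the count of 27 is not support either. Aspa was higher by 6.76. Over 48 sums of a library and a type, genes among the most like the mean of the 9 members in log2 level were Rnf220 (r = 0.98), Ppp1r14a (r = 0.98), Hapln2 (r = 0.97) and Kctd13 (r = 0.97). The members' own correlation with the mean of the other 8 ran from 0.93 for Cnp to 0.98 for Mal. These sums share libraries, and the correlations are descriptions.

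**Figure D2:**
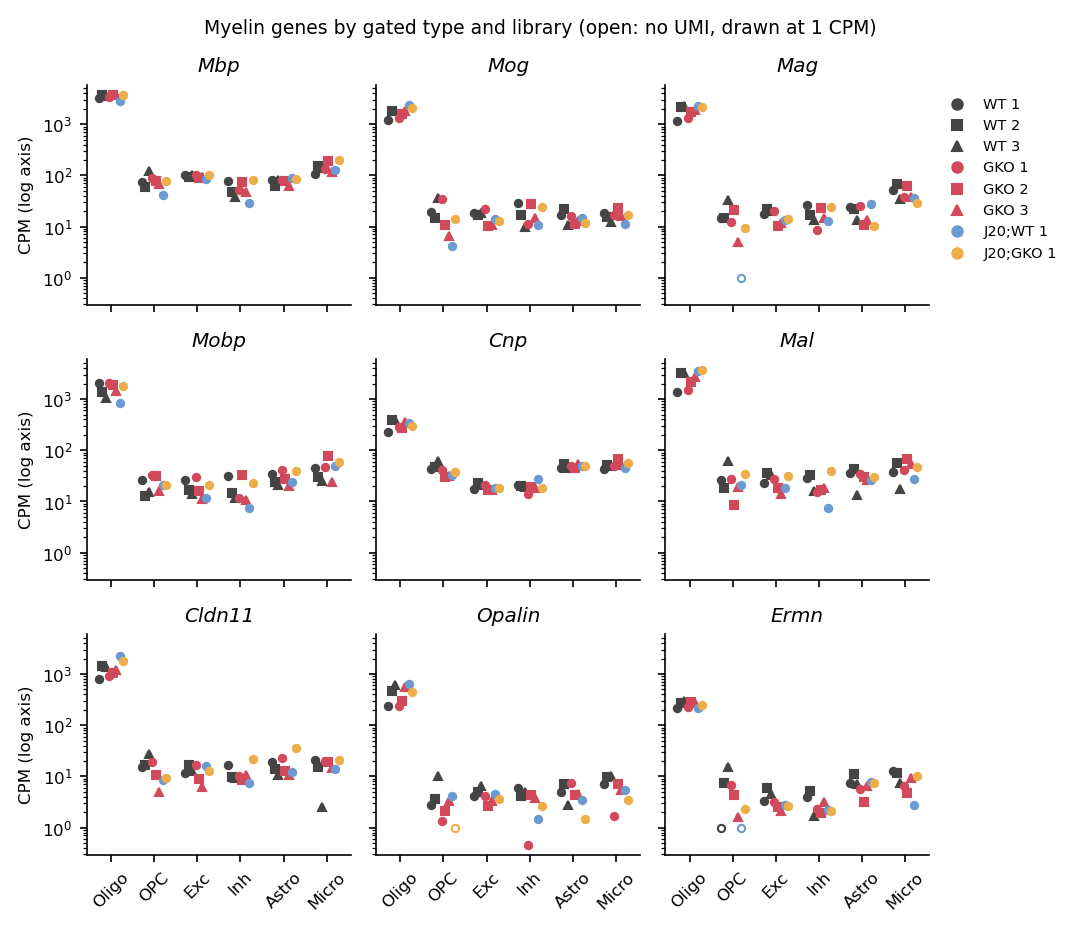
Level of each myelin gene (CPM, log axis) in 6 gated types, 1 point per library, with open points at 1 CPM for libraries without a UMI. Each gene is highest in oligodendrocytes in all 8 libraries, and Cnp has the smallest step down to the other types.

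In OPCs, excitatory and inhibitory neurons, astrocytes and microglia all 9 members were found, and they did not keep one ratio to their level in oligodendrocytes. In excitatory neurons Mbp stood at 85.2 to 103 CPM, which is a median of 2.77% of the oligodendrocyte level of the same library (range 2.32% to 3.11%), and Cnp at 16.4 to 22.9 CPM, which is 5.84% (4.77% to 7.81%). The other 7 members had medians between 0.776% (Mag) and 1.32% (Ermn). Cnp had the highest percentage of the 9 in all 8 libraries, and Mbp was second in all 8.

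RNA that reaches every nucleus from a single pool adds its genes in a fixed ratio, and for this reason the percentages are set side by side. The ratio within such a pool was not measured here, since barcodes without a nucleus were not analysed, and it need not be that of oligodendrocyte nuclei.

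In the other types Cnp again had the highest percentage in all 8 libraries. Its median was 12.0% in OPCs, 5.68% in inhibitory neurons, 15.7% in astrocytes and 16.0% in microglia. Mbp reached 2.05%, 1.38%, 2.29% and 4.08% in the same types. Mog stayed between 0.707% and 0.872% in these 4.

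**Figure D3:**
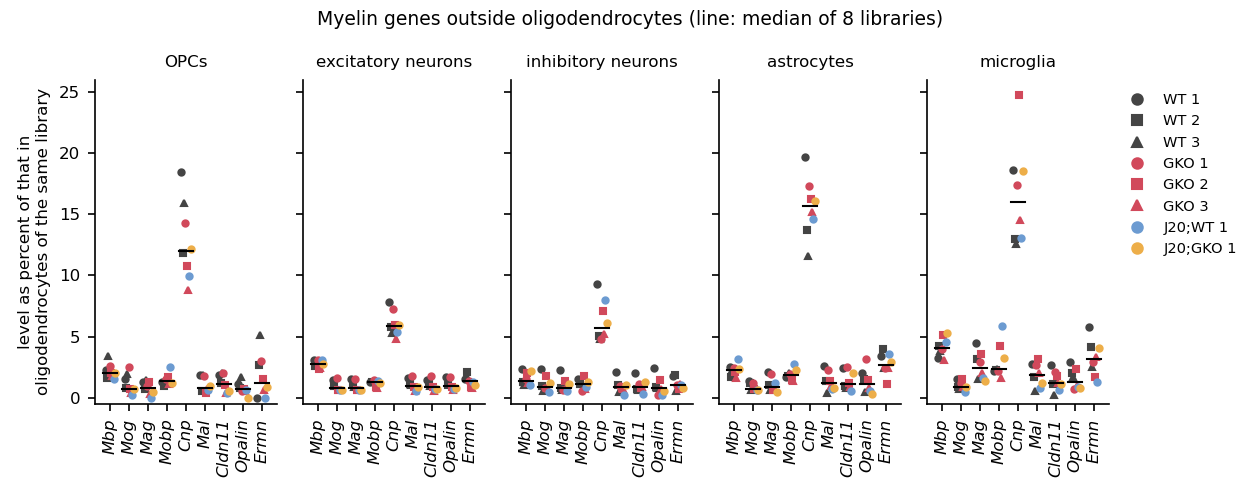
Level of each myelin gene outside oligodendrocytes as a percent of its level in oligodendrocytes of the same library, for 5 types. Points are libraries and lines are medians of 8, and Cnp lies above the other 8 genes in each type.

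Dnajc7, the co-chaperone gene on the other strand of the Cnp locus, was counted in every type. Its median was 141 CPM in oligodendrocytes, 105 in OPCs, 107 in excitatory neurons, 109 in inhibitory neurons, 109 in astrocytes and 209 CPM in microglia. It was above Cnp in 8 of 8 libraries in each type but oligodendrocytes, where it was below Cnp in all 8. Its part in the Cnp counts was not tested.

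The other types were then tested against excitatory neurons with the library as a block. In OPCs only Cnp was higher, by 1.09 ± 0.15 (SE, log2), beside 17.6% of 17422 genes, and 0 were lower, beside 14.1%. In astrocytes Cnp was higher by 1.37 ± 0.09 and Ermn by 1.06 ± 0.21, beside 21.3% of 17244 genes, and 0 members were lower, beside 20.5%. In microglia 4 members were higher, Mag by 1.48 ± 0.16, Cnp by 1.44 ± 0.14, Ermn by 1.36 ± 0.31 and Mobp by 1.24 ± 0.17, beside 24.8% of 17800 genes, and 0 were lower, beside 23.2% (adjusted p = 0.000113 or less for all 7). Ermn rested there on 36 UMIs in 1998 nuclei, 1 of them in J20;WT, and had too few counts for a test in microglia alone. The counts in OPCs and astrocytes, 1 and 2 of 9, are near or under the share of all genes and are no result about the members as a set. With TMM scaling Cnp in OPCs (0.87), Ermn in astrocytes (0.97) and Mobp (0.84) and Ermn (0.96) in microglia came under the threshold of 1.

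Inhibitory neurons had 0 members higher, beside 9.86% of 16855 genes, and 0 lower, beside 8.54%. There Mbp differed by -0.77 ± 0.15 with an adjusted p of 0.00213, inside the threshold of 1 on the log2 scale. Mbp stood at 29.3 to 81.9 CPM in inhibitory neurons, below excitatory neurons of the same library throughout, while Cnp stood at 13.7 to 27.0 CPM, where the ranges overlap.

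These directions are per UMI and flip when counted per nucleus, because a median excitatory nucleus held 7418.5 to 12851.5 UMIs against 3702 to 5521 in OPCs, 3213 to 4740.5 in astrocytes and 1664 to 2289 in microglia. Per nucleus 0 members were higher in OPCs, astrocytes or microglia than in excitatory neurons, and 7, 6 and 9 were lower, beside 60.8%, 64.8% and 80.3% of all genes. This scaling moves all genes alike: their median went from 0.12, 0.05 and 0.21 to -1.27, -1.41 and -2.32 on the log2 scale. The change in Cnp per nucleus was -0.31, -0.08 and -1.09 in these 3 types.

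Among the 42 other lineage genes, 24 of 40 tested were higher in OPCs than in excitatory neurons, beside 17.6% of all genes, and 1 was lower, beside 14.1%. The largest changes were in Gpr17 and in Olig2, a factor that OPCs keep on. Of the 42 genes, 39 had counts enough for a test in excitatory neurons alone. The list was chosen by lineage and holds genes of OPCs, so the count of 24 is not support. In astrocytes 19 of 39 were higher, beside 21.3%, and 2 lower, beside 20.5%. In microglia 12 of 39 were higher, beside 24.8%, and 5 lower, beside 23.2%. In inhibitory neurons 1 of 39 was higher (Tspan2, by 1.91), beside 9.86%, and 1 lower (Gpr37, by 1.27), beside 8.54%. The counts in microglia and inhibitory neurons are near or under the share of all genes and are no result about the list.

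The UMIs of the 7 members other than Mbp and Cnp were uneven over nuclei. Among 12718 excitatory nuclei 69.0% held none of them, 27.7% held 1 to 9, and 416 nuclei (3.27%) held 10 or more, which together carried 65.8% of these UMIs. Inhibitory nuclei were alike, with 65.6% in 41 of 1331 nuclei. In astrocytes the share was 36.4% in 26 of 2753 nuclei, in OPCs 35.4% in 8 of 901 and in microglia 23.5% in 9 of 1998. The cut of 10 UMIs was the same for all types, while their depth differed. A median nucleus held 7418.5 to 12851.5 UMIs in excitatory and 9490 to 14554 in inhibitory neurons. In astrocytes it held 3213 to 4740.5, in OPCs 3702 to 5521 and in microglia 1664 to 2289. The parts of depth and of the gates in these shares were not tested.

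Mbp and Cnp were then measured in nuclei with 0 UMIs of the other 7, which leaves out those with 1 to 9 as well. In excitatory neurons Mbp had a median in such nuclei of 74.6 CPM (65.1 to 84.3 over libraries) against 97.6 CPM in all excitatory nuclei, and Cnp 16.8 against 18.2 CPM. In microglia Mbp had 118 against 136 CPM and Cnp 52.4 against 50.5 CPM. Mbp had 30.7 against 49.1 CPM in inhibitory neurons, 51.3 against 80.3 CPM in astrocytes and 52.7 against 74.7 CPM in OPCs. Cnp had 16.9 against 19.3 CPM, 44.8 against 49.1 CPM and 36.3 against 38.8 CPM in the same 3 types. This selection was added after the data were seen and favours nuclei with few UMIs.

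**Figure D4:**
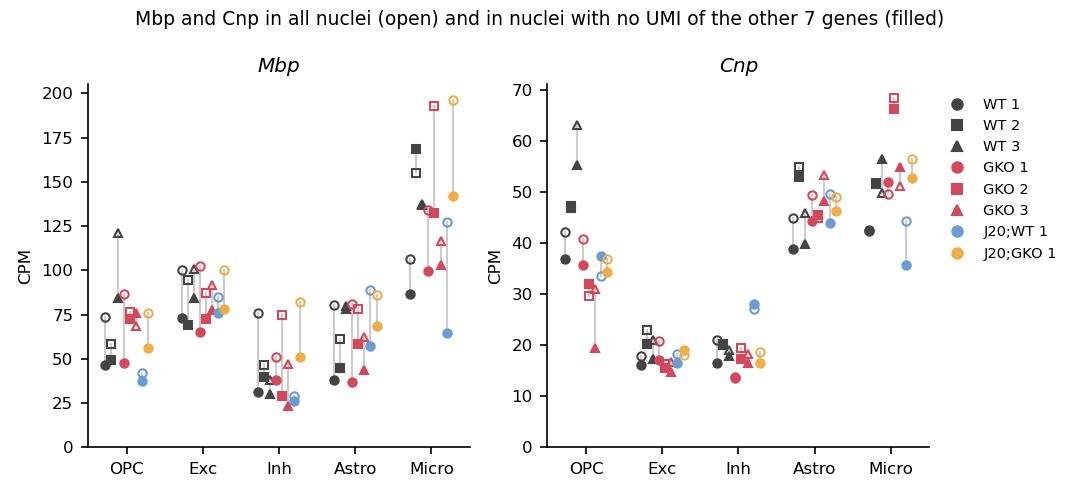
Level (CPM) of Mbp and Cnp in OPCs, excitatory neurons, inhibitory neurons, astrocytes and microglia, in all nuclei (open) and in nuclei with no UMI of the other 7 myelin genes (filled), 1 pair of points per library. Mbp in excitatory neurons goes from a median of 97.6 to 74.6 CPM, and Cnp from 18.2 to 16.8 CPM.

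When nuclei with 0.03% or more of their UMIs from St18 and Prr5l were left out, 10824 excitatory nuclei remained. The 7 other members then had medians of 0.308% (Mag) to 0.726% (Ermn) of the oligodendrocyte level, Mbp 2.19% and Cnp 5.24%. St18 itself stood at 104 CPM in excitatory neurons, the highest level outside the gate, so this stricter limit can also leave out neurons for their own St18.

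The share of nuclei with a UMI followed depth. Mbp was met in a median of 52.6% of excitatory nuclei and 20.3% of microglia, but after each nucleus was thinned to 1000 UMIs the shares were 9.59% and 11.2%. Mog, thinned in the same way, was met in 81.9% of oligodendrocytes and in 1.38% of excitatory nuclei. Thinning left out 583 excitatory nuclei, 47 microglia and 107 oligodendrocytes with fewer UMIs.

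Mbp UMIs per excitatory nucleus were set against the percent of a library's UMIs in oligodendrocyte-gated nuclei, which ran from 4.25% (GKO 3) to 8.98% (WT 2). Per nucleus Mbp ran from 0.746 UMIs in J20;WT to 1.52 in GKO 1. Over the 8 libraries Pearson's r was 0.69 (exact permutation p = 0.0645, two-sided) and Spearman's rho 0.50 (exact permutation p = 0.216), with adjusted values of 0.129 and 0.216 over the pair. Without GKO 3 and J20;WT, the libraries farthest from the median, r was 0.61 (exact permutation p = 0.186, n = 6), so a relation was not shown. The dates hold 2, 5 and 1 libraries, too few for values within a date. Mbp per nucleus ranked the libraries as median UMIs per excitatory nucleus did, from 7418.5 UMIs in J20;WT to 12851.5 in GKO 1. Per UMI, Mbp in excitatory neurons ran from 85.2 to 103 CPM. The part of depth in Mbp per nucleus was not tested.

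The gate was split by Enpp6, a choline phosphodiesterase gene that marks newly formed oligodendrocytes. Nuclei with at least 0.05% of their UMIs from Enpp6 numbered 878, with 66 to 248 per library, against 5951 below that share. Gated nuclei held a median of 1858 to 2601.5 UMIs over libraries, so this split rests on few Enpp6 UMIs per nucleus and depends on depth. Opalin was lower in the Enpp6-positive nuclei in all 8 libraries: in WT it stood at 107, 244 and 257 CPM against 250, 539 and 673 CPM, in GKO at 105, 156 and 250 CPM against 250, 329 and 605 CPM, in J20;WT at 374 against 725 CPM and in J20;GKO at 211 against 490 CPM. The change was -1.18 ± 0.07 (SE, log2; adjusted p = 3.04e-21), beside 0.795% of 10069 genes lower past a log2 difference of 1.

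Mal was lower as well in all 8 libraries, by 0.45 ± 0.05 on the log2 scale (adjusted p = 7.16e-11), inside the fold threshold. It stood for example at 1191 against 1400 CPM in WT 1 and at 2193 against 3462 CPM in WT 3, with the smallest steps in WT 1 and GKO 1. No other member passed the adjusted p, and 0 were higher past the threshold beside 1.71% of genes. For Mbp the difference was 0.07 ± 0.04 and for Mag 0.07 ± 0.05.

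Of the 42 other lineage genes 40 were tested in this split, and 3 were higher, beside 1.71% of all genes, and 1 lower, beside 0.795%. Bmp4 was higher by 4.65 ± 0.36, Gpr17 by 4.14 ± 0.55 and Tcf7l2 by 1.99 ± 0.26, all known from newly formed oligodendrocytes. Ptgds, the prostaglandin D synthase gene, fell by 1.90 ± 0.07. The next largest changes lay inside the fold threshold and went both ways: Anln at 0.75, Sirt2 at 0.72, Apod at 0.69 and Qdpr at -0.69. Hapln2, among the genes most like the members, was higher as well, by 0.58. The listed genes that rose were thus not only those named for newly formed oligodendrocytes.

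**Figure D5:**
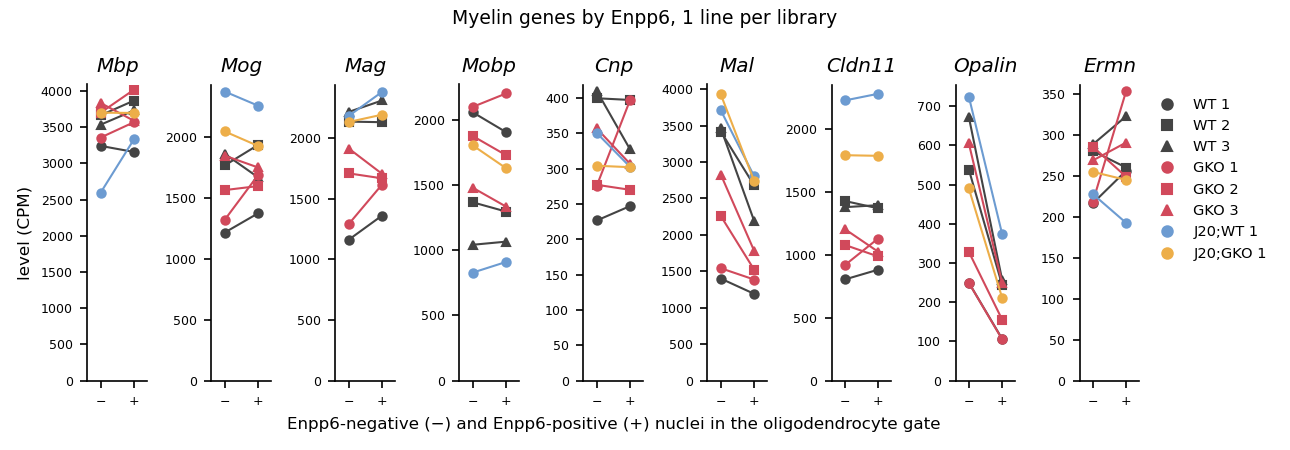
Level (CPM) of each myelin gene in Enpp6-negative and Enpp6-positive nuclei of the oligodendrocyte gate, 1 line per library. Opalin and Mal go down in all 8 libraries, and each of the other 7 genes goes down in 3 to 6 of 8 libraries.

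At the edge of the gate the members were graded. The 217 nuclei with 0.10% to 0.15% of UMIs from St18 and Prr5l held Mbp at 1613 CPM and Mal at 1329 CPM, and the 284 nuclei with 0.15% to 0.20% held 2486 and 2155 CPM.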

How the data were processed

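Nuclei of 8 hippocampi were sequenced on the 10X Genomics platform. The deposited counts are UMI counts per gene and barcode that the authors made with Cell Ranger (version 3.0.2) on mm10, and their notes also name Seurat (3.0) and R (3.6.2). Whether intronic reads and strand entered the counting is not given in the sources used here. Nuclei with more than 5% mitochondrial UMIs, under 200 or over 7500 genes were left out, as in the study. The members and gene lists were chosen with earlier results of these data known.

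Types were gated by the share of UMIs in marker genes, nuclei that passed more than 1 gate (1118) or none (4141) were kept apart, and no doublet caller was run. Counts were summed per library and type. CPM is the sum per 1e+06 UMIs of that type and library. GKO and WT were compared with edgeR (4.0.16, R 4.3.3), quasi-likelihood, TMM scaling and filtered low counts, called at an adjusted p (Benjamini-Hochberg) under 0.05 and a log2 difference over 0.3. Types were compared with the library as a block, scaled by total UMIs, without the gate's genes, at a log2 difference over 1. The genes named are the members, called genes or the largest changes among 42 listed lineage genes, and genes among the 5 most like the members. Poisson intervals are exact, at 95%, and cover counting error only. In a simulation that altered 200 genes by a log2 step of 1, 39% of these were recovered between GKO and WT in oligodendrocytes and 69.5% in excitatory neurons.

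Same-numbered WT and GKO libraries deviated together from their group means (correlation 0.57, 0.185 and 0.219 over all nuclei), but WT 2 with GKO 3 (0.216) and WT 3 with GKO 2 (0.303), of the same date, did so too. A fit with the replicate number as a block was also made. DESeq2 (1.42.0), other gates, scalings, filters and libraries left out were tried. Figures were drawn with Python (3.11.15) and matplotlib (3.10.9). Results on some genes are not reported here.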

Additional observations from a re-analysis of the deposited data

How the results depend on the processing

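Of 959 values computed under other settings 883 were unchanged, all 187 for oligodendrocytes against OPCs among them. For a difference or a correlation, unchanged means the same direction and the same side of the threshold. For a count of called genes it means an equal or similar count. Members called between GKO and WT stayed at 0 in all 99. For genes called between GKO and WT, each 0 in the report, the replicate block gave 1 in OPCs, 1 in inhibitory neurons, 1 in astrocytes and 1 in all nuclei, and changed no other call. The date as a batch term gave 5 in OPCs and 2 in inhibitory neurons, no filter on low counts gave 1, 11 and 1 in OPCs, inhibitory neurons and astrocytes, and DESeq2 gave 1 in inhibitory neurons. Leaving out a library gave 0 to 1 in OPCs and 0 to 4 in microglia, the 4 without WT 1.

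Members higher than in excitatory neurons numbered 0 in OPCs, 0 in astrocytes and 0 in microglia per nucleus (beside 6.35%, 8.91% and 6.58% of all genes), with 7, 6 and 9 lower (beside 60.8%, 64.8% and 80.3%). With TMM scaling they numbered 0, 1 and 2 (beside 14.6%, 20% and 18.3%). In astrocytes they numbered 1 in the 6 WT and GKO libraries, 1 in nuclei of at least 1000 UMIs, 4 with St18 and Prr5l under 0.03% (beside 21.3%, 21.4% and 21.7%), and 1 to 2 with a library left out (1 without GKO 3). In microglia they numbered 8 with the gate at 0.30% (beside 25.2%), and in inhibitory neurons 1 was lower with St18 and Prr5l under 0.03% (beside 8.62%). Per nucleus Cnp reversed to -0.31 in OPCs, Cnp to -0.084 and Ermn to -0.38 in astrocytes, and Mag to -1.06, Mobp to -1.29, Cnp to -1.09 and Ermn to -1.17 in microglia. Per nucleus all genes shift, since UMIs per nucleus differ between types.

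Between dates, leaving out a library gave 0 to 1 members higher and 1 to 7 lower. Between GKO and WT in oligodendrocytes, Ermn reversed to 0.0047 with DESeq2 size factors, 0.00507 with DESeq2, 0.000453 without a filter, 0.00567 with the replicate block and 0.00541 with the batch term, and Mog to 0.000738 with the gate at 0.30%. With a library left out Ermn ran from -0.118 to 0.0868, Mog from -0.181 to 0.0822 and Opalin from -0.682 to 0.0483. None passed the threshold, and the cause was not tested. In OPCs 13 Opalin and 19 Ermn UMIs limit what depth can show.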

Other observations

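In nuclei of the endothelial gate and of the mural and fibroblast gate, too few for a test, Mal and Cldn11 were the members that stood apart. Mal, which epithelia also use in membrane traffic, had 39 UMIs in 49 endothelial nuclei, with a median of 391 CPM over libraries, 0 in WT 3 and 1119 CPM in J20;GKO, which had 2 such nuclei. Cldn11 had 127 UMIs in 203 nuclei of the mural and fibroblast gate, from 79.2 CPM in J20;WT to 765 CPM in GKO 2, where 22 of 23 UMIs lay in 1 nucleus.

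Galnt5, on the opposite strand at the Ermn locus, had a median of 76.4 CPM in oligodendrocytes and 0 to 0.802 CPM in the other 5 types, below Ermn in oligodendrocytes in all 8 libraries.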
